A study of Mus musculus with 9 samples.

Results

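The acrosome is the cap-shaped secretory vesicle over the front of the sperm nucleus, and 44 genes of its formation and content were followed in mouse testis after injection of either of 2 code-named inhibitors of KIFC1, a minus-end-directed kinesin. The genes were chosen by name: 47 names were listed, of which Hrb, Equatorin and Sp56 are older names of Agfg1, Eqtn and Zp3r, so that 44 genes of the 19991 in the count table remained. All 44 had counts in each of the 9 libraries, and all 44 passed the filter on low counts. Testis RNA came from ICR mice, an outbred stock, at 8 weeks of age, and 3 libraries each followed an injection of AZ82 at 1 µM, of CW069 at 50 µM, or of PBS (Control). The labels do not say whether the 3 samples of a group were separate animals, so p-values reflect only how these samples spread, and that spread can be partly technical. The route, volume and time of the injections are not given in the labels.

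An acrosome begins in round spermatids, when vesicles leave the Golgi apparatus, dock on the nucleus and fuse. It then spreads over the nucleus on a plate of actin-related proteins and, in elongating spermatids, is held by the perinuclear theca, a cytoskeletal shell between acrosome and nucleus. Its content, proteases, hyaluronidases and zona-binding proteins, is released near the egg. The 44 genes were sorted into 5 of the proteases and their partners, 5 of lysozyme-like proteins, 6 of other content, 7 of acrosomal membrane and surface proteins, 12 of anchoring and theca proteins, 7 of Golgi and vesicle traffic, and 2 of spermatid transcription. The kinase gene Csnk2a2 was placed with the Golgi and vesicle genes. Spaca9, which encodes a microtubule-associated protein, was placed with the anchor and theca genes. Spaca5, Actrt1 and Cylc1 lie on the X chromosome.

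Crem, a member of the transcription group, encodes a spermatid activator that binds the cyclic AMP response element (CRE), so the letters before the members' transcription starts are shown first. In the RefSeq promoter table (build GRCm38.p6) 36 of the 44 members had an entry; Acr, Capza3, Crem, Cylc2, Eqtn, Lyzl1, Pcsk4 and Smap2 had no entry. Within the 250 bases before the start, the full CRE, TGACGTCA, stood in 1 member, Ccin, or 2.78% of members, against 1.77% of the 27025 genes in the table. The shorter core TGACG, searched on both strands and contained in the full element, stood in 8 members (22.2%), against 19.8% of all genes. The letters TATAAA, those of a TATA box, stood in 3 members (8.33%), Actl9, Crisp2 and Spaca7, against 14.3%. They were counted anywhere in the window. In these 3 members each run began further from the start than position -50, and whether any works as a TATA box was not tested. These shares describe letters in a window and are no count of bound sites. The 120 bases that end at the start follow for 6 members whose values are given below, 4 with the core and 2 without it, written 5′ to 3′ on the gene's strand with TGACG or its reverse complement in capitals.
Ccin (chr4:43983384-43983503, plus strand): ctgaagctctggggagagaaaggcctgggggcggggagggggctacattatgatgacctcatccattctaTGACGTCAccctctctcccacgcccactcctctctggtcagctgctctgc
Acrbp (chr6:125049807-125049926, plus strand): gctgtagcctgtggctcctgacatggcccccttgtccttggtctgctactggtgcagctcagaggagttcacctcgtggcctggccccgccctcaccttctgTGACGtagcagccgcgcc
Spaca1 (chr4:34050066-34050185, minus strand): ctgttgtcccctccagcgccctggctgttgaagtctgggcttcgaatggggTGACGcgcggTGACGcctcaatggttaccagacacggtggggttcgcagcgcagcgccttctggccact
Spaca3 (chr11:80858243-80858362, plus strand): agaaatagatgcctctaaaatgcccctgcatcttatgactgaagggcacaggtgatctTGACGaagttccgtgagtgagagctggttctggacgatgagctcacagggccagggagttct
Spaca9 (chr2:28699652-28699771, minus strand): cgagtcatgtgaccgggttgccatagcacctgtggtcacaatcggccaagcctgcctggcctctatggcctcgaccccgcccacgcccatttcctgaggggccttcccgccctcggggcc
Actrt2 (chr4:154667868-154667987, minus strand): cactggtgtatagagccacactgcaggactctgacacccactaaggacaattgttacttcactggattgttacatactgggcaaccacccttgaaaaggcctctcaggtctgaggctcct
In Ccin, which encodes the theca protein calicin, the full element begins at position -50 relative to the start, and in Acrbp the core begins at position -18.

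Library totals ran from 13856070 to 18102593 counts, and a member's count in a library was at least 118 (Spaca5). Of the cell type markers found in the table, none was at 0 in all libraries. Hba-a2 of red blood cells and Lep of adipocytes, with 3 and 39 counts over all libraries, did not pass the filter on low counts. Control 3 stood apart. Prm2, a protamine of elongating spermatids, was at 1174 CPM in Control 3, against 4417 and 3984 CPM in Control 1 and 2, so many of the fold changes below are also given without Control 3. The summed level of the 13 elongating spermatid markers was 16690 to 20230 CPM after AZ82, 13630 to 15880 CPM after CW069 and 7040 to 18320 CPM in Control, where Control 3 was the lowest. The 9 round spermatid markers found summed to 2666 to 2941 CPM after AZ82, 2321 to 2630 CPM after CW069 and 1593 to 2745 CPM in Control. In Control 3 the lowest sum came with Gsg1, which had a log2 ratio of -1.18 to Control 1 and 2, and the 8 others had ratios of -0.41 to 0.15. The 10 spermatocyte markers summed to 1578 to 1662 CPM after AZ82, 1588 to 1678 CPM after CW069 and 1474 to 1723 CPM in Control. The 9 Leydig cell markers summed to 1532 to 1863 CPM after AZ82, 1463 to 1516 CPM after CW069 and 1810 to 1937 CPM in Control, and the 9 macrophage markers to 108.3 to 151.3 CPM after AZ82, 107 to 154.3 CPM after CW069 and 149.8 to 187.4 CPM in Control. In RNA of whole testis, fewer cells of a type and less RNA per cell cannot be told apart, and the part of these markers in the results below was not tested.

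Levels are given in CPM, a gene's count per 1000000 counts of the scaled library. Per kilobase (kb) of exon, they spanned from 3.43 to 580.0 as means over the 9 libraries. The 3 most abundant were content genes. Crisp2, a cysteine-rich secretory protein of acrosome and tail, had 580.0 CPM per kb, Dkkl1, a secreted acrosomal protein, 498, and Spink2, an inhibitor that guards against early protease activity, 457. Next came genes of the anchor and theca group, Actl7b at 382, Actrt2 at 319, Spaca9 at 308 and Actl7a at 299.7 CPM per kb. Acr, the gene of the protease acrosin, was at 123 CPM per kb. The lowest levels were those of Golgi and vesicle genes, which most cell types also use, with Gopc at 3.43, Vps54 at 3.64, Pick1 at 9.59 and Golga1 at 10.3 CPM per kb. Exon lengths are those of all annotated transcripts joined, so a gene with long or many isoforms comes out lower on this scale than its main transcript would.

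**Figure D1:**
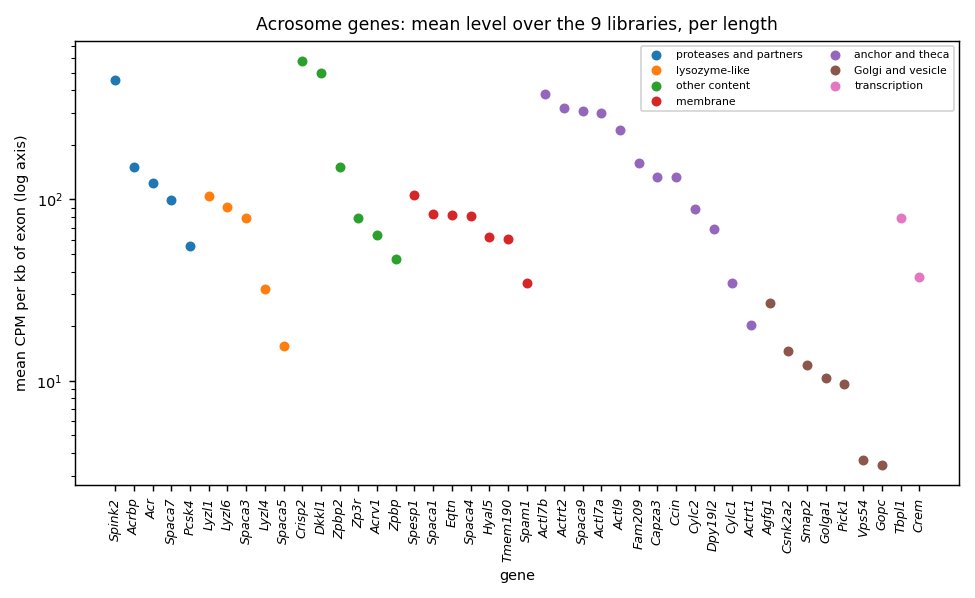
Mean level over the 9 libraries of each of the 44 acrosome genes, in CPM per kilobase of exon on a log axis, ordered by level within each role group (colours). Crisp2 is highest at 580.0 and Gopc lowest at 3.43 CPM per kb.

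Among the 3 Control libraries the members did not vary alike. Relative to the mean of Control 1 and 2, Control 3 had a median log2 ratio of -0.57 over the 12 anchor and theca genes, of -0.17 over the 7 membrane genes, of 0.060 over the 5 protease genes and of 0.080 over the 7 Golgi and vesicle genes. The last median is the value of the kinase gene Csnk2a2. Control 3 was below both other Control libraries in 10 of the 12 anchor and theca genes and in 1 of the 7 Golgi and vesicle genes. Over all 44 members it was below both in 25 (56.8%), against 36.2% of all genes tested, and above both in 12 (27.3%), against 37.4%. It was the lowest of the 9 libraries in 18 members. Within their own groups, CW069 2 was below both others in 32 members, AZ82 3 in 21 and the remaining libraries in 5 to 18. The share of all genes was not computed for these. Over all 44 members the median log2 ratio to the others of the group was -0.11 for both Control 3 and CW069 2. Over the anchor and theca genes it was -0.57 for Control 3 and -0.12 for CW069 2. Control 3 was picked out by its values, and the role groups were chosen with earlier results of these data known. The values here are descriptions and carry no test.

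The furthest below were theca genes. Cylc2, which encodes a cylicin of the theca, was at 153, 214 and 174 CPM after AZ82, 175, 152 and 195 CPM after CW069 and 175, 198 and 98.4 CPM in Control, and its log2 ratio of Control 3 to Control 1 and 2 was -0.92. Actrt2, an actin-related protein of the theca, was at 490.2, 497 and 489 CPM after AZ82, 503, 442 and 506 CPM after CW069 and 459, 477 and 259.5 CPM in Control (ratio -0.85). Both genes had their lowest level in Control 3, while Control 1 and 2 lay within the range of the treated libraries. Actrt1 (-0.79), Actl9 (-0.76), Capza3 (-0.72), the sperm form of an actin-capping subunit, and Ccin (-0.58) followed. Outside this group the lowest ratios were those of Spaca7 (-0.51), an acrosomal protein, and Crisp2 (-0.49).

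Not all anchoring genes lay low in Control 3. Dpy19l2, an inner nuclear membrane protein that anchors the acrosome, had a ratio of 0.11, while Fam209, its partner, had -0.38. Actl7b had -0.058 and its neighbour Actl7a -0.40. The highest ratios were those of Vps54 (0.21), a tether for vesicles that return to the Golgi, and Golga1 (0.16), a golgin. Acr (0.060), Acrbp (0.13), which holds proacrosin as an inactive precursor, Spink2 (0.10) and Tbpl1 (0.15), a TBP-like transcription factor that spermatids need, were above both other Control libraries as well.

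**Figure D2:**
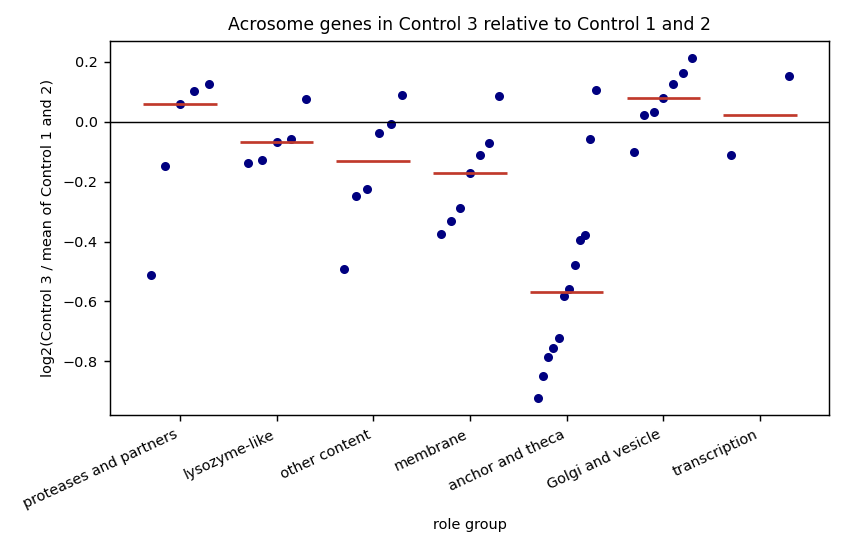
Log2 ratio of Control 3 to the mean of Control 1 and 2 for each of the 44 genes (points) by role group, with the group median as a red line. Anchor and theca genes reach -0.92 with a median of -0.57, and the median of the Golgi and vesicle genes is 0.080.

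**Figure D3:**
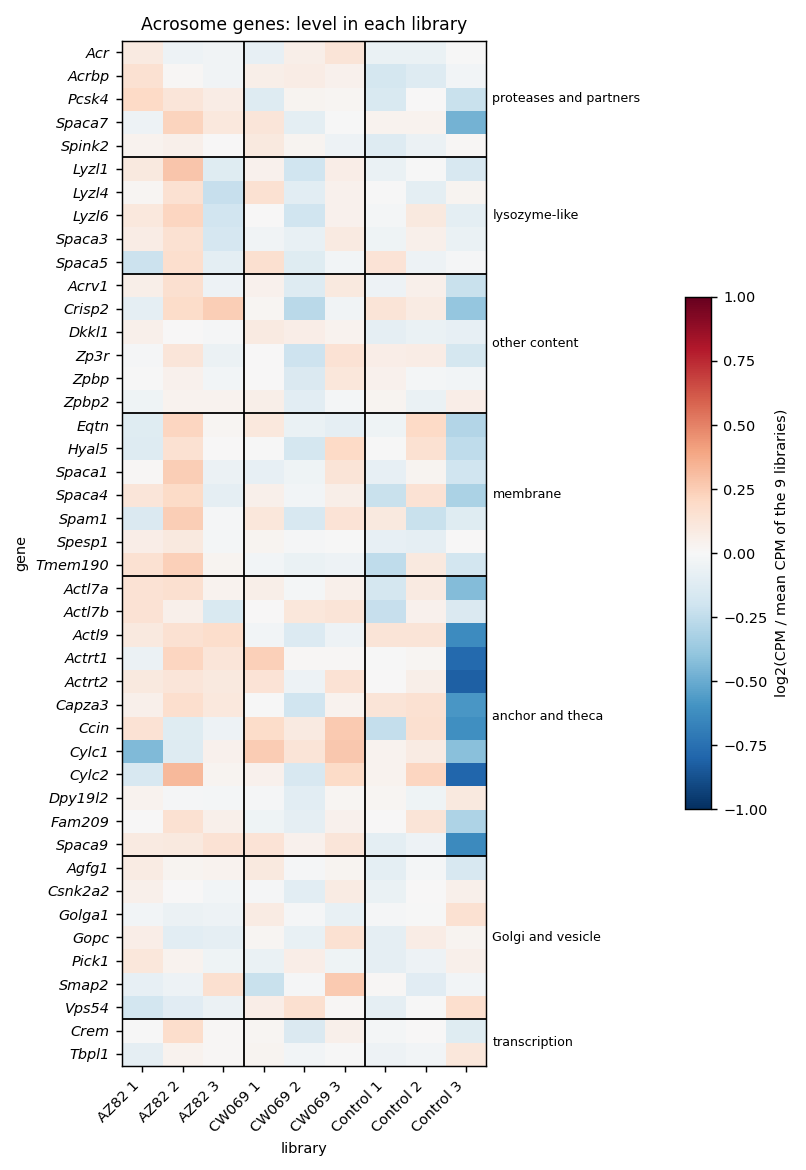
Level of each gene (rows, by role group) in each library (columns: AZ82, CW069, Control) as the log2 ratio of CPM to the gene's mean CPM over the 9 libraries, from blue (lower) to red (higher). The deepest blue lies in the anchor and theca rows of Control 3.

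AZ82 against Control asks how the acrosome genes differed after this inhibitor. None of the 44 was called: edgeR's quasi-likelihood test, with Benjamini-Hochberg adjustment over 15834 genes, gave 0 members at an adjusted p under 0.05, as it gave 0 of all genes (0%), and the smallest adjusted p of a member was 0.554. DESeq2 and limma-voom called 0 members too. Of the members, 5 were higher (11.4%; all genes 4.04%) and 0 lower (all genes 4.79%) at an unadjusted p under 0.05, namely Pcsk4, Spaca9, Tmem190, Actl7a and Agfg1. The count of higher members was 4 without Control 3 (all genes 3.36%), 2 without Control 1, AZ82 1 or AZ82 2, and 9 without Control 2. It was also 2 with library size alone and in a fit of the AZ82 and Control libraries alone. Here and in the comparisons below, the share of all genes at this level was not computed for the other alternative fits. Their counts therefore only show how far the number moved. Log2 fold changes ran from -0.15 to 0.35 with a median of 0.11, against -0.0010 for all genes, and 36 of 44 were above 0 (all genes 49.7%). Without Control 3 the median was 0.05 and 32 of 44 were above 0. With library size alone as the scaling, which put the median of all genes at -0.08, 26 of 44 were above 0 and 36 of 44 above that median. The median 95% interval reached 0.22 to either side on the log2 scale, and in 40 of 44 members it lay within a 1.5-fold change in either direction.

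The protease group held the member with the smallest p. Pcsk4, a proprotein convertase of the acrosome, was at 187, 178 and 171 CPM after AZ82, 149, 166 and 165 CPM after CW069 and 146, 163 and 139.9 CPM in Control. The AZ82 libraries lay above every Control library, and the CW069 libraries overlapped Control. Its log2 fold change after AZ82 was 0.25 ± 0.078 (SE; 95% interval 0.081 to 0.42; unadjusted p = 0.00817; edgeR adjusted p = 0.554), and 0.20 without Control 3. Acrbp was at 551, 500.2 and 484 CPM after AZ82, 516, 521 and 509.8 CPM after CW069 and 439.9, 454 and 487 CPM in Control, with a log2 fold change of 0.15 ± 0.071 after AZ82. Its AZ82 and Control libraries overlapped by a few CPM. All 5 genes of this group were above 0 after AZ82, with a median of 0.15, and 0.12 without Control 3.

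Among the anchor and theca genes the log2 fold changes after AZ82 had a median of 0.19, with 10 of 12 above 0, but of 0.015 without Control 3, with 8 of 12 above 0. Spaca9, a microtubule-associated sperm protein, was at 244, 246 and 253 CPM after AZ82, 253, 237 and 250.5 CPM after CW069 and 215, 221 and 148 CPM in Control. All 6 treated libraries lay above all Control libraries, and Control 3 was far below the other Control libraries. Its log2 fold change was 0.35 ± 0.13 (95% interval 0.069 to 0.63; edgeR adjusted p = 0.554), the highest of the members, and 0.18 ± 0.059 without Control 3 (edgeR adjusted p = 0.632). Actl7a was at 501, 505 and 465 CPM after AZ82, 474, 448 and 469 CPM after CW069 and 402, 482 and 336 CPM in Control, a log2 fold change of 0.27 ± 0.11 after AZ82 and 0.15 without Control 3. Control 2 lay within the AZ82 range of Actl7a and Control 1 and 3 below it. Actrt2 had 0.30 ± 0.18 and Cylc2 0.20 ± 0.22, but 0.069 and -0.055 without Control 3, so that Cylc2 changed sign. Actl9 and Capza3 had 0.23 ± 0.16 and 0.17 ± 0.16, against 0.011 and -0.039 without Control 3. Ccin had 0.19 ± 0.16, and 0.019 without Control 3. Cylc1, the X-linked cylicin gene, was at 50.9, 63.1 and 71.2 CPM after AZ82, 82.4, 75.4 and 83.1 CPM after CW069 and 70.8, 73.3 and 51.7 CPM in Control. AZ82 1 was the lowest library for Cylc1 and the AZ82 and Control groups overlapped (log2 fold change -0.080 ± 0.14; -0.23 without Control 3 and 0.041 without AZ82 1). Actl7b, the gene of this group with the most reads, was at 607, 567 and 493 CPM after AZ82, 550.3, 594 and 602 CPM after CW069 and 467, 566 and 496 CPM in Control (0.13 ± 0.096), and its groups overlapped. Since 90.9% of its exon bases lie opposite an annotated gene and no source used here says whether reads were counted by strand, its counts may include reads of that gene.

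All 7 membrane and surface genes were above 0 after AZ82 (median 0.12), and 5 of 7 without Control 3. Tmem190, a small protein of the inner acrosomal membrane, was at 58.6, 62.5 and 54.0 CPM after AZ82, 51.9, 50.5 and 50.9 CPM after CW069 and 44.2, 56.4 and 46.6 CPM in Control. Control 2 lay within the AZ82 range, and the log2 fold change was 0.25 ± 0.094 (95% interval 0.042 to 0.46; edgeR adjusted p = 0.554). Spesp1, an equatorial segment protein, was at 336, 343 and 316 CPM after AZ82, 326, 319 and 320.0 CPM after CW069 and 303, 301 and 321 CPM in Control, a log2 fold change of 0.11 ± 0.061 with overlapping groups. Spaca1, which the acrosome needs to spread, Spaca4, a surface protein, Eqtn, an equatorial membrane protein, and the hyaluronidase genes Spam1 and Hyal5 make up the rest. The 95% intervals of these 5 include 0 for both inhibitors. Spaca1 was at 134, 157 and 127 CPM after AZ82, 125, 128 and 145 CPM after CW069 and 125, 135 and 116 CPM in Control, where all groups overlapped, with a log2 fold change of 0.15 ± 0.097 after AZ82 and 0.085 ± 0.097 after CW069 (0.093 and 0.031 without Control 3).

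The other content genes had a median log2 fold change of 0.059 after AZ82, with 5 of 6 above 0, and of 0.019 without Control 3, with 4 of 6 above 0. Crisp2 was at 1535, 1854 and 1944 CPM after AZ82, 1654, 1358 and 1596 CPM after CW069 and 1788, 1731 and 1252 CPM in Control. The spread among Control libraries was wider than the difference of the means, and the log2 fold change was 0.16 ± 0.14 after AZ82, and 0.011 without Control 3. Dkkl1 was at 812, 786 and 777 CPM after AZ82, 833, 822 and 807 CPM after CW069 and 737, 751 and 740.3 CPM in Control, where every AZ82 and CW069 library lay above every Control library (0.092 ± 0.058 after AZ82; edgeR adjusted p = 0.634). Its within-group SD was the lowest of the members, 0.025 on the log2 scale. Zpbp and Zpbp2 encode zona-binding proteins of the acrosomal matrix, Acrv1 a matrix protein and Zp3r a zona-binding protein. The 95% intervals of Zpbp and Zpbp2 lay within a 1.5-fold change for both inhibitors. Of the 5 lysozyme-like genes, Spaca3, Spaca5, Lyzl1, Lyzl4 and Lyzl6, 4 were above 0 after AZ82, with a median of 0.045, and of 0.020 without Control 3. Spaca3, a sperm lysozyme-like protein, was at 79.5, 83.5 and 66.9 CPM after AZ82, 73.5, 71.5 and 80.2 CPM after CW069 and 73.0, 77.9 and 72.0 CPM in Control, with overlapping groups and a log2 fold change of 0.045 ± 0.088 after AZ82 and 0.015 ± 0.088 after CW069 (0.020 and -0.0062 without Control 3).

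The Golgi and vesicle group lay around 0 (median 0.011, and 0.035 without Control 3, with 4 of 7 above 0 in both fits). Both medians are the values of Csnk2a2, the kinase gene placed in this group. Of the 4 members below 0 with the smallest p, Vps54, Golga1, Cylc1 and Gopc, only Cylc1 is of another group. Vps54 was at 24.1, 25.3 and 26.3 CPM after AZ82, 28.7, 30.6 and 27.6 CPM after CW069 and 25.7, 27.3 and 30.8 CPM in Control, with a log2 fold change of -0.15 ± 0.085 after AZ82 (unadjusted p = 0.109; edgeR adjusted p = 0.613) and -0.078 without Control 3. AZ82 and Control overlapped. Golga1 was at 56.5, 55.3 and 55.6 CPM after AZ82, 60.9, 57.3 and 54.7 CPM after CW069 and 57.1, 57.4 and 64.1 CPM in Control, lower in each AZ82 library than in each Control library, with a log2 fold change of -0.094 ± 0.070 (edgeR adjusted p = 0.68), and -0.041 without Control 3. Gopc, a trans-Golgi protein whose loss leaves mouse sperm without acrosomes, had -0.047 ± 0.084. Agfg1, needed for proacrosomal vesicles to fuse, was at 239.7, 231 and 232 CPM after AZ82, 242, 224 and 230.4 CPM after CW069 and 211, 223 and 202 CPM in Control, above every Control library in each treated library (0.14 ± 0.063 after AZ82; edgeR adjusted p = 0.561). Counting both directions, groups did not overlap after AZ82 in 5 members that were higher (11.4%; all genes 6.65%), namely Actrt2, Agfg1, Dkkl1, Pcsk4 and Spaca9, and in 1 that was lower (2.27%; all genes 8.62%), Golga1.

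**Figure D4:**
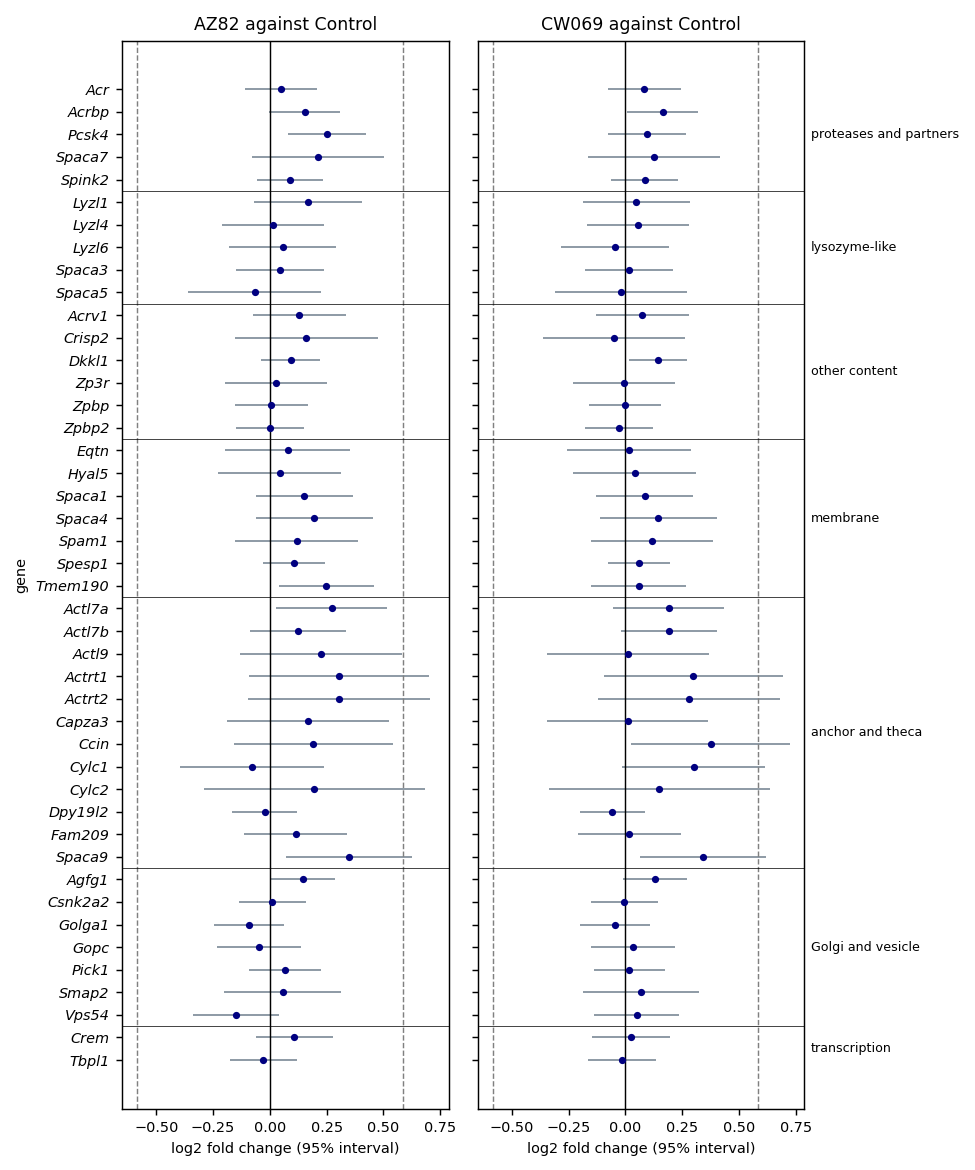
Log2 fold change (points) with its 95% interval (lines) of each acrosome gene for AZ82 against Control and CW069 against Control, by role group, from edgeR over 9 libraries. Dashed lines mark a 1.5-fold change in either direction, and 40 of 44 intervals after AZ82 and 38 of 44 after CW069 lie between them.

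The comparison of CW069 with Control shares its Control libraries with that of AZ82. edgeR again called 0 of 44 members at an adjusted p under 0.05, with 0 of all genes called (0%) and a smallest adjusted p of a member of 0.638, and DESeq2 and limma-voom called 0 members. At an unadjusted p under 0.05, 4 members were higher (9.09%; all genes 3.63%) and 0 lower (all genes 3.71%): Spaca9, Dkkl1, Ccin and Acrbp. That count was 0 without CW069 1, 2 without Control 1, AZ82 2, CW069 2 or CW069 3 and with library size alone, and 9 without Control 2. The median log2 fold change was 0.06, in a range of -0.06 to 0.37, against -0.0038 for all genes, and 34 of 44 were above 0 (all genes 49%). Without Control 3 the median was 0.03, 29 of 44 were above 0, 3 members, Acrbp, Dkkl1 and Spaca9, were higher at an unadjusted p under 0.05 (all genes 4.07%), and 2, Actl9 and Capza3, were lower (all genes 4.79%). With library size alone 25 of 44 were above 0, and 34 of 44 above the median of all genes, -0.05. In 38 of 44 members the 95% interval lay within a 1.5-fold change. The 6 others, Actrt1, Actrt2, Ccin, Cylc1, Cylc2 and Spaca9, had all been placed in the anchor and theca group.

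Content genes were led by Dkkl1 and Acrbp, whose values stand above. Dkkl1 averaged 821 ± 13.5 CPM after CW069 and 743 ± 7.45 CPM in Control (SD, n = 3 each), a log2 fold change of 0.14 ± 0.058 (95% interval 0.015 to 0.27; edgeR adjusted p = 0.654). Acrbp averaged 516 ± 5.74 CPM after CW069 and 460.5 ± 24.4 CPM in Control, a log2 fold change of 0.16 ± 0.071 with no overlap between the groups (edgeR adjusted p = 0.674). In the GENCODE annotation 29.8% of the exon bases of Acrbp are shared with another gene on the same strand, so part of its reads may have been counted elsewhere or left out. Pcsk4 had 0.094 ± 0.078 after CW069 (0.047 without Control 3), with 160.0 ± 9.79 CPM against 149.9 ± 12.1 CPM in Control. Crisp2 had -0.050 ± 0.14 and Tmem190 0.058 ± 0.094, against -0.20 and 0.022 without Control 3, and Spesp1 had 0.060 ± 0.061. Lyzl6, the lysozyme-like gene with the most reads, was at 96.8, 104 and 79.0 CPM after AZ82, 90.2, 78.2 and 92.5 CPM after CW069 and 88.8, 96.3 and 84.1 CPM in Control, with a log2 fold change of -0.045 ± 0.11 after CW069 (-0.089 without Control 3) and overlapping groups.

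For the anchor and theca genes the median after CW069 was 0.19, with 11 of 12 above 0, and 0.059 without Control 3, with 7 of 12 above 0. Spaca9 had 0.34 ± 0.13 (95% interval 0.063 to 0.62; edgeR adjusted p = 0.638), and 0.18 without Control 3. Ccin was at 284, 236 and 247 CPM after AZ82, 291, 273 and 307 CPM after CW069 and 217, 286 and 168 CPM in Control. Control 2 lay within the CW069 range and Control 1 and 3 below it, and the log2 fold change of Ccin was 0.37 ± 0.16 (edgeR adjusted p = 0.666), and 0.21 without Control 3. Cylc1 had 0.30 ± 0.14, with every CW069 library above every Control library, and 0.16 without Control 3. Actl7a had 0.19 ± 0.11 and Actl7b 0.19 ± 0.096, and Actl7a had 0.070 without Control 3. Actrt2 had 0.28 ± 0.18 and Cylc2 0.15 ± 0.22, but 0.048 and -0.097 without Control 3.

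Actl9, an actin-like protein that joins acrosome and nucleus, and Capza3 changed sign after CW069 without Control 3, and also with library size alone as the scaling. Actl9 was at 356, 370.2 and 377 CPM after AZ82, 326, 303 and 322 CPM after CW069 and 365, 363 and 215 CPM in Control, and Capza3 at 210.3, 228 and 218 CPM after AZ82, 203, 177 and 209 CPM after CW069 and 222, 226 and 136 CPM in Control. In both genes the 3 CW069 libraries lay below Control 1 and 2 and above Control 3. With all libraries the log2 fold changes after CW069 were 0.012 ± 0.16 for Actl9 and 0.010 ± 0.16 for Capza3. Without Control 3 they were -0.20 ± 0.059 (edgeR adjusted p = 0.4) and -0.19 ± 0.076 (edgeR adjusted p = 0.504). Neither passed the test in either fit.

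Below 0 after CW069 the members with the smallest p were Dpy19l2, Golga1, Zpbp2 and Lyzl6, the last described above. Dpy19l2 was at 243, 235 and 234 CPM after AZ82, 235, 219 and 239.9 CPM after CW069 and 240.2, 229.7 and 253 CPM in Control, a log2 fold change of -0.059 ± 0.064 (95% interval -0.20 to 0.084). Zpbp2 was at 248, 262 and 261 CPM after AZ82, 266, 238 and 252 CPM after CW069 and 259.9, 244 and 268 CPM in Control (-0.030 ± 0.067), and Golga1 had -0.048 ± 0.069. Without Control 3, Dpy19l2 had -0.022, Zpbp2 0.0014 and Golga1 0.0087. Each of these groups overlapped Control, and each of the intervals includes 0. Groups did not overlap in 5 members that were higher after CW069 (11.4%; all genes 6.13%), Acrbp, Agfg1, Cylc1, Dkkl1 and Spaca9, and in 0 that were lower (all genes 7.24%). Agfg1 had 0.13 ± 0.063 (edgeR adjusted p = 0.689).

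**Figure D5:**
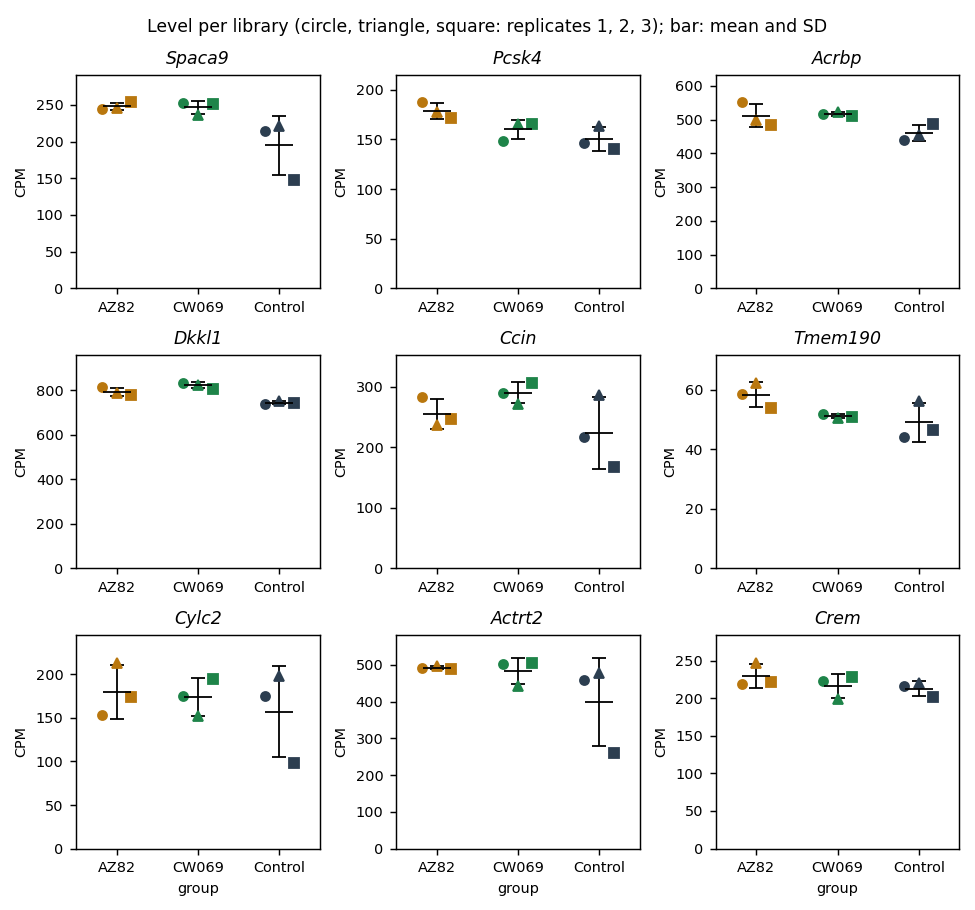
CPM of 9 acrosome genes in each library by group (AZ82, CW069, Control), with marker shape for the replicate number and black bars for mean and SD of 3 libraries. Spaca9 and Dkkl1 are higher in every treated library than in every Control library, and in Cylc2 and Actrt2 the low point is Control 3 at 98.4 and 259.5 CPM.

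The mean of both inhibitors against Control tests the 6 treated libraries together. 0 of 44 members were called by edgeR's quasi-likelihood test, against 1 of all genes (0.00632%), and the smallest adjusted p of a member was 0.490, that of Spaca9. DESeq2 and limma-voom called 0 members here. Before adjustment, 6 members had a p under 0.05 and were higher (13.6%; all genes 4.31%) and 0 were lower (all genes 5.27%): Spaca9 (log2 fold change 0.35 ± 0.11), Acrbp (0.16 ± 0.062), Pcsk4 (0.17 ± 0.068), Agfg1 (0.14 ± 0.055), Actl7a (0.23 ± 0.097) and Dkkl1 (0.12 ± 0.051). Of these, 3 (Spaca9, Acrbp and Dkkl1) remained at that level without Control 3 (all genes 3.95%), and the count was 3 without Control 1, 1 without AZ82 1, 2 without CW069 1 or CW069 2 and 10 without Control 2. It was 1 with library size alone. The lower members with the smallest p were Golga1 (-0.071 ± 0.060), Dpy19l2 (-0.041 ± 0.056), Vps54 (-0.050 ± 0.073) and Tbpl1 (-0.023 ± 0.058), against -0.016, -0.0062, 0.023 and 0.029 without Control 3. Spaca9 and Actl7a had 0.18 and 0.11 without it. The 6 treated libraries lay above all 3 Control libraries in 3 members (6.82%; all genes 2.19%), Spaca9, Agfg1 and Dkkl1, and below them in 0 (all genes 2.92%). The median log2 fold change was 0.08 with 37 of 44 above 0 (all genes 49.1%), and 0.03 with 30 of 44 above 0 without Control 3. With library size alone 26 of 44 were above 0, and 37 of 44 above the median of all genes, -0.07.

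The transcription group holds the factors Crem and Tbpl1. Crem was at 219, 247 and 222 CPM after AZ82, 222, 199 and 228 CPM after CW069 and 216, 220.3 and 202 CPM in Control, and Tbpl1 at 244, 265 and 262 CPM after AZ82, 264, 254 and 259 CPM after CW069 and 250.4, 254 and 281 CPM in Control. In both genes all 3 groups overlapped, and for each inhibitor the 95% interval of the log2 fold change lay within a 1.5-fold change.

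CW069 against AZ82 says whether the treated groups differed from each other, at doses that differ (50 and 1 µM). edgeR called 0 of 44 members and 0 of all genes (0%), with a smallest adjusted p of a member of 0.972, and DESeq2 and limma-voom called 0 members. At an unadjusted p under 0.05, 2 members were higher after CW069 (4.55%; all genes 2.58%), Cylc1 (log2 fold change 0.38 ± 0.14) and Vps54 (0.20 ± 0.085), and 0 lower (all genes 2.39%). The higher count was 0 without AZ82 1 or CW069 1, and 1 without AZ82 2, CW069 2 or CW069 3, with DESeq2 and with library size alone. The lower count was 1 without Control 2 or AZ82 3, 3 in a fit of these groups alone, and 4 without Control 3 (9.09%; all genes 4.27%), namely Actl9, Capza3, Crisp2 and Pcsk4, where the smallest adjusted p of a member was 0.273. Each CW069 library was above each AZ82 library in these 2 genes (4.55%; all genes 5.52%) and below in 4 (9.09%; all genes 5.8%), Pcsk4 (-0.16 ± 0.078), Tmem190 (-0.19 ± 0.094), Actl9 and Capza3. In 43 of 44 members the 95% interval of this difference lay within a 1.5-fold change, and Cylc1 was the exception. The median of the members was -0.03, with 13 of 44 above 0 (all genes 49.6%), but 22 of 44 without AZ82 2 and 27 of 44 without CW069 2. With library size alone as the scaling, 24 of 44 were above 0, and 13 of 44 above the median of all genes, 0.03.

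Of 59 other genes of acrosome formation, listed with earlier results of these data known, 50 were found and tested. After AZ82 0 were called by edgeR, with 9 higher (18%; all genes 4.04%) and 5 lower (10%; all genes 4.79%) at an unadjusted p under 0.05, and the median log2 fold change was 0.081. Without Control 3 there were 5 higher (all genes 3.36%) and 2 lower (all genes 4.45%), with a median of 0.035. After CW069 0 were called, with 6 higher (12%; all genes 3.63%) and 0 lower (all genes 3.71%) at that level and a median of 0.069. Without Control 3 there were 4 higher (all genes 4.07%) and 2 lower (all genes 4.79%) after CW069, with a median of 0.020. Hipk4, a kinase of spermatids, was at 142, 144 and 123 CPM after AZ82, against 121, 112 and 115 CPM in Control (log2 fold change 0.23 ± 0.075, edgeR adjusted p = 0.554), and Gba2, a glucosylceramidase, at 152, 153 and 150.1 CPM after AZ82, against 130.2, 138 and 122 CPM in Control (log2 fold change 0.22 ± 0.074, edgeR adjusted p = 0.554). Bend4 was at 45.9, 48.3 and 48.9 CPM after AZ82, against 60.7, 51.4 and 57.3 CPM in Control (log2 fold change -0.24 ± 0.075, edgeR adjusted p = 0.554), and Atg5, of autophagosome formation, at 6.18, 5.36 and 6.64 CPM after AZ82, against 7.39, 8.34 and 8.31 CPM in Control (log2 fold change -0.40 ± 0.13, edgeR adjusted p = 0.554). In all 4 genes the AZ82 and Control libraries did not overlap. They were picked as the 2 with the smallest p in each direction, so this adds no support. Of all genes, 6.65% were higher and 8.62% lower without overlap, and the count over the listed genes was not computed.

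After CW069, Sox30, a transcription factor of spermatids, was at 259.5, 273 and 294 CPM after CW069, against 232, 249 and 191 CPM in Control (log2 fold change 0.30 ± 0.098, edgeR adjusted p = 0.539), with 0.20 without Control 3, and Gm128 at 409, 419.7 and 404 CPM after CW069, against 371, 369 and 354 CPM in Control (log2 fold change 0.17 ± 0.059, edgeR adjusted p = 0.585). Stx12, a syntaxin, was at 44.2, 37.4 and 38.6 CPM after CW069, against 43.2, 44.5 and 46.1 CPM in Control (log2 fold change -0.15 ± 0.076, edgeR adjusted p = 0.689), with overlapping groups. Taf7l, a germ cell subunit of the general transcription machinery, was at 35.9, 35.8 and 30.8 CPM after CW069, against 36.7, 37.7 and 38.9 CPM in Control (log2 fold change -0.15 ± 0.075, edgeR adjusted p = 0.695). For both inhibitors together, the genes with the smallest p were Sox30 and Hipk4 above 0 (log2 fold changes 0.27 and 0.20) and Taf7l and Bend4 below 0 (-0.18 and -0.18), each with an edgeR adjusted p = 0.49. Without Control 3, Sox30 had 0.16.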

How the data were processed

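The deposited tables hold raw counts of reads per gene, with no normalization by the authors; the per-library tables and the joint table were identical. Per the submitters' processing notes the tools were Trimmomatic, HISAT2 and HTSeq with build GRCm39, without settings, and per the labels the kit was stranded; whether counting used strand is not given in the sources used here. Reads shared by overlapping or similar genes can be lost or misplaced.

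Low counts were removed with filterByExpr, leaving 15834 genes. A model of 3 group means over the 9 libraries (6 residual degrees of freedom) was fitted after TMM scaling in edgeR 4.0.16 under R 4.3.3, tested by the two-sided quasi-likelihood F test and adjusted by Benjamini-Hochberg over all genes, with calls at an adjusted p under 0.05. Levels are CPM with those factors, and errors of fold changes are SE. Exon lengths and gene overlaps came from GENCODE M21 (an earlier build, GRCm38), and promoters from RefSeq. The pipeline was tested on simulated counts. How often it found changes as small as those of the members is not reported here. Alternatives were RLE or library size alone, other filters, DESeq2 1.42.0, limma-voom (limma 3.58.1), a replicate block, fits of the compared groups alone, and leaving out each library.

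Members, role groups and lists were chosen with earlier results of these data known. Genes given with all values were those with the 4 smallest p per direction and comparison with Control, the most abundant of each role group, and the 2 furthest in each direction in Control 3; Actl9, Capza3, Crem, Spaca1 and Spaca3 were also described after their values were seen, as were other genes named with a ratio or fold change alone. Of the other acrosome genes, those named were the 2 with the smallest p per direction in each comparison with Control. The median log2 SD within groups was 0.13 for the members and 0.11 for the 9907 tested genes in the members' range of level.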

Additional observations from a re-analysis of the deposited data

How the results depend on the processing

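In all 4 comparisons 0 members were called under every alternative run. The members' median log2 fold change was, with 1 library left out, 0.046 to 0.13 for AZ82, 0.033 to 0.10 for CW069, 0.029 to 0.13 for both inhibitors and -0.060 to 0.015 for CW069 against AZ82. With library size alone, where the median of all genes moved by less than 0.1, the members' median was 0.027 for AZ82, with 26 of 44 above 0, and 25 and 26 of 44 were above 0 for CW069 and both inhibitors. The number of genes called among all genes moved more. For AZ82 it was 1 with library size alone, 6 with DESeq2, 1 with limma-voom and 0 to 4 with a library left out. For CW069 it was 1 with library size alone, 28 with DESeq2 and 0 to 7 with a library left out. For both inhibitors it was 15 with DESeq2 and 0 to 6 with a library left out. For CW069 against AZ82 it was 13 with DESeq2, 8 in a fit of those groups alone and 0 to 4 with a library left out.

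With 1 library or another left out, the log2 fold change of 17 of 44 members after AZ82, 24 after CW069, 20 for both inhibitors and 25 for CW069 against AZ82 changed sign at least once. Those of them with a fold change in the report ranged as follows. After AZ82, Spaca3 had -0.021 to 0.13, Cylc1 had -0.23 to 0.041, Cylc2 -0.055 to 0.39, Capza3 -0.039 to 0.29 and Csnk2a2 -0.018 to 0.035. After CW069, Spaca3 had -0.036 to 0.050, Crisp2 -0.20 to 0.043, Tmem190 -0.011 to 0.17, Lyzl6 -0.092 to 0.024, Golga1 -0.089 to 0.0087, Zpbp2 -0.069 to 0.0083, Cylc2 -0.097 to 0.35, Actl9 -0.20 to 0.13 and Capza3 -0.19 to 0.13. For both inhibitors, Vps54 had -0.10 to 0.023 and Tbpl1 -0.054 to 0.029. With library size alone, Spaca3 had -0.034 after AZ82 and -0.033 after CW069, and Actl9 and Capza3 had -0.024 and -0.028 after CW069. The cause was not tested.

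The replicate numbers gave no sign of pairing across groups. Deviations of same-numbered libraries correlated at -0.146 to 0.0427, and those of differently numbered libraries at -0.087 to 0.168. With 3 libraries per group, these correlations cannot show that a weak pairing was absent. With the replicate block, 0 members were called in each comparison, members higher at an unadjusted p under 0.05 numbered 4 for AZ82, 2 for CW069 and 3 for both inhibitors, and 0 genes in all were called for both inhibitors. Counts of members above 0 and at an unadjusted p were added to these checks after the data were seen. Counting error weighs most on Spaca5, the member with the fewest reads, 1331 over 9 libraries, and 3 libraries per group limit the precision throughout.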

Other observations

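Besides Control 3, other libraries also differed from the rest of their group in the median of the acrosome genes. Over the 44 members, AZ82 2 had a median log2 ratio to the mean of the other AZ82 libraries of 0.066, against -0.0050 over all genes tested. For AZ82 3 the median was -0.055 (all genes 0.0016). Among the CW069 libraries, it was -0.11 for CW069 2 (all genes 0.0023) and 0.073 for CW069 3 (all genes -0.0084). Control 2 had a median of 0.12 (all genes -0.0095). The members' median log2 fold changes after AZ82 and CW069 were 0.11 and 0.06. Those compare group means, whereas the ratios here set a single library against the others of its group, so the sizes are not on a like footing. These medians were not tested.

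Cylc1 and Cylc2 encode related theca proteins, and both were lower in Control 3 than in Control 1 and 2 (log2 ratios -0.48 and -0.92). Cylc1 was about as low in AZ82 1, at 50.9 CPM, as in Control 3, at 51.7 CPM. Cylc2 was at 153 CPM in AZ82 1 and lowest in Control 3, at 98.4 CPM.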
